A study of Homo sapiens with 18 samples.

Results

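The loss of transcripts over 3.5 h of actinomycin D was measured in H1 cells whose NAT10 had been lowered with an shRNA. Its members are 6 of the 18 RNA-sequencing libraries of the series, chosen by their labels: the 3 knockdown libraries at 0 h and the 3 at 3.5 h. H1 is an established human embryonic stem cell line, grown without feeders on Matrigel, and actinomycin D blocks transcription. All 6 groups of the series carry a lentiviral shRNA vector with a GFP marker, were enriched for GFP-positive cells and were expanded under puromycin. The knockdown groups carry an shRNA against NAT10, the control groups a negative control shRNA, and each was collected at 0, 1.5 and 3.5 h of actinomycin D. The labels do not say whether the transduced cells were a clone. Nor do they tie the 3 libraries of a group to independent cultures, and the p-values therefore measure only the spread between these libraries, which may be technical.

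The amount of a transcript is set by how fast it is made and how fast it is degraded, and once transcription is blocked only the second process should remain visible. Most messenger RNAs are first shortened at the poly(A) tail by deadenylases such as the CCR4-NOT complex, and are then decapped or degraded by exonucleases and the exosome. Transcripts of immediate early genes and of many transcription factors are known to turn over quickly, and those of ribosomal proteins and metabolic enzymes slowly. NAT10 is the acetyltransferase that writes N4-acetylcytidine on RNA, a mark that has been linked to transcript stability.

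The 18 libraries held 15037492 to 15519197 counts, so depth was nearly equal. NAT10 stood at 20.4, 21.2 and 24.1 CPM, that is, read counts relative to library size with TMM factors, in the knockdown libraries at 0 h, against 210 ± 1.13 CPM in control cells at 0 h (SD, n = 3). All 12 embryonic stem cell markers were at 5 CPM or more at 0 h. Their sum was lower in knockdown cells at 0 h, 6510 to 7235 CPM against 8586 to 8931 CPM in control cells. Of the fibroblast markers 10 of 18 reached 5 CPM, and 5 were below 0.5 CPM (COL3A1, DCN, LUM, FAP and PRRX1). Summed over the list, fibroblast markers stood at 1652 to 2143 CPM in knockdown and 924 to 1003 CPM in control cells at 0 h. Summed neural ectoderm markers spanned 1371 to 1431 CPM in knockdown and 632 to 795 CPM in control cells, with 10 of 19 below 0.5 CPM. Of the other marker lists 9 of 13 mesoderm, 11 of 13 endoderm and 9 of 13 trophoblast genes were below 0.5 CPM. The part of these cell-type markers in the results below was not tested. Knockdown replicate 1 at 0 h stood apart: its counts differed from replicates 2 and 3 with a chi-square of 14.5 and 20.7 per degree of freedom over genes, against 2.09 between replicates 2 and 3.

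Over 3.5 h the knockdown cells lost most of their polyadenylated RNA relative to the ERCC spike-in, a mix of synthetic RNAs. Summed gene counts divided by those of the spike-in gave 665, 512 and 473 at 0 h and 231, 233 and 183 at 3.5 h. The times did not overlap, and the mean at 3.5 h was 39.2% of that at 0 h (p = 0.1 by an exact permutation of the libraries, two-sided, which is the lowest value possible with 3 against 3). In control cells 50.8% was left. Without knockdown replicate 1 at 0 h the knockdown value was 43.8%. Because the spike-in was added after the RNA had been purified, it measures RNA per purified RNA only if that input was equal, and fewer cells and less RNA per cell cannot be told apart in these bulk libraries.

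Nearly every gene took part in the loss. With levels scaled to the summed ERCC counts, 16311 of 16760 genes tested (97.3%) passed as lower at 3.5 h and none as higher (edgeR quasi-likelihood test, adjusted p under 0.05). No gene was higher at an unadjusted p under 0.05 or by DESeq2 either. In 16085 genes (96%) the 3 libraries at 3.5 h did not overlap the 3 at 0 h. The median log2 change was -1.47, or 36.0% of the transcript left, and the central 90% of genes spanned 17.8% to 53.8%. Without knockdown replicate 1 at 0 h the median was 39.8%. The median gene kept 39.2%, 39.6% and 31.1% in the 3 libraries at 3.5 h. The third of these also held the most ERCC counts, 82289 against 64884 and 64478, and most genes below are therefore lowest in it.

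Under TMM scaling, which sets each transcript against the typical one, 4213 genes passed as higher (25.1%) and 3814 as lower (22.8%), with a median log2 change of 0.04. A rise on this scale means that a transcript was lost more slowly than most, not that it accumulated. Without knockdown replicate 1 at 0 h the counts were 4442 and 3893.

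The bounds first set for short-lived and persistent transcripts took few genes. A log2 loss of at least 3.5 under ERCC scaling took 2 genes, ZNF488 and HPS6, and a log2 change of at least -0.5 together with a rise under TMM took 10, all with a mean of at least 5 CPM. Broader sets were therefore drawn after the data had been seen, among the 10805 genes with that mean. The lost set holds 321 genes that passed under TMM with a log2 change of -1 or less, and the kept set 309 genes that passed with a rise of at least 1.5-fold. Both sets are chosen on the measured change, so their values in knockdown cells are a description with no test. At the edge of the lost set ADCYAP1R1 and RBMXL1 stood just inside at -1.002 and -1.0005, with SMCR8 (-0.9994) and ZNF282 (-0.9989) just outside. At the edge of the kept set RPS15A and SLC39A11 (0.5855 and 0.5852) were inside and RPS15 and CCDC150 (0.5849 and 0.5844) outside. Leaving out knockdown replicate 1 at 0 h gave 543 kept genes in place of 309.

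The 14 genes with the largest losses kept 8.35% to 10.4% of their transcript. ZNF488, a zinc finger transcription factor (chromosome 10, 47365496 to 47384273, GRCh38), stood at 10.4, 12.6 and 13.1 CPM at 0 h and 2.97, 2.62 and 2.96 CPM at 3.5 h. The times did not overlap, and 8.35% ± 0.988 of the transcript was left (SD, n = 3), a log2 change of -3.58 ± 0.25 (SE, edgeR quasi-likelihood test, adjusted p = 1.1e-44). HPS6, a subunit of the BLOC-2 complex of lysosome-related organelles, kept 9.25%, 10.3% and 6.03% in the 3 libraries. TENT5B, a noncanonical poly(A) polymerase of the TENT5 family (chromosome 1, 27005020 to 27012836), fell from 70.3, 96.6 and 102 CPM to 23.0, 20.8 and 24.9 CPM. It kept 9.04% ± 0.728, and it was the lowest of 69 genes of the mRNA decay list. IRF2BP1, a corepressor of IRF2, kept 9.12% ± 1.82. CCN2, the connective tissue growth factor and a well-known YAP target, stood at 117, 116 and 117 CPM at 0 h and 32.3, 33.6 and 33.9 CPM at 3.5 h, with 9.92% ± 1.21 left (log2 change -3.33 ± 0.22, adjusted p = 4.9e-50). BTG2, an antiproliferative p53 target that binds the CCR4-NOT deadenylase, kept 12.2%, 9.42% and 7.39%. The other 8 of the 14 largest falls were RNF139, JRK, PLPP6, RTL6, DCLRE1B, TRMT12, TMEM177 and CCDC8, with 9.29% to 10.4% left. All 14 passed as lower under both scalings, under every alternative that was run.

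Among these genes, PLPP6 and BTG2 carry in the 3′ UTR a copy of the AU-rich heptamer TATTTAT, a letter string typical of short-lived transcripts. The sites are shown because the motif is the textbook mark of rapid decay, and the capitals mark it in 29 bases of the sense strand. PLPP6 is a polyisoprenoid diphosphate phosphatase, with its site at chr9:4663481-4663509, and the site of BTG2 is at chr1:203307528-203307556 (GRCh38, plus strand, GENCODE 29 transcripts).
PLPP6: cctctattgtaTATTTATtcaacaactgt
BTG2: aaatgaagagcTATTTATatatattattt
The lost set was not richer in this motif. It occurred on the sense strand of the 3′ UTR of 30.1% of 306 lost genes with a 3′ UTR, against 32.6% of 10267 genes in all and 17.9% of 274 kept genes. The density was 0.271 copies per kb of 3′ UTR in the lost set, 0.348 in the kept set and 0.315 in all, and a match is a description of letters, not a tested site.

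At the other end, the 14 highest genes kept 66.9% to 110% of their transcript. MT-RNR1, the small ribosomal RNA of mitochondria (chromosome M, 648 to 1601), rose in its share of the library from 840, 748 and 714 CPM to 2425, 2439 and 2451 CPM (log2 change 1.67 ± 0.05 under TMM, adjusted p = 2.7e-17). On the ERCC scale it stood at 117%, 119% and 93.2% of the 0 h mean, a log2 change of 0.13 ± 0.19 that did not pass (adjusted p = 0.49). MT-RNR2, the large mitochondrial ribosomal RNA, kept 68.4% ± 9.36, and its fall under ERCC scaling did not pass without knockdown replicate 1 at 0 h (adjusted p = 0.095). Both rRNAs carry short tails, and their yield in oligo(dT) libraries need not follow their abundance. ALPG, the germ cell alkaline phosphatase, kept 88.3%, 92.1% and 66.3%. DLL3, a Notch ligand-like protein, kept 92.2%, 93.2% and 59.9%. SPP1, the secreted phosphoprotein osteopontin, stood at 170, 152 and 136 CPM at 0 h and 338, 368 and 361 CPM at 3.5 h, with 80% ± 10.6 left. The changes of ALPG, DLL3, SPP1, THSD7A, PHLDB2 and CCDC78 did not pass under ERCC scaling (adjusted p = 0.053 to 0.22). SPP1 and PHLDB2 passed as lower without knockdown replicate 3 at 0 h (adjusted p = 0.023 each), and PHLDB2 also without replicate 2 at 0 h (adjusted p = 0.04). CCDC78 passed without knockdown replicate 1 at 0 h (adjusted p = 0.035), without replicate 1 at 3.5 h (adjusted p = 0.031) and by DESeq2 (adjusted p = 0.045). NPIPB3, NPIPB4 and SMG1P3 belong to families of near-identical copies, so their counts are uncertain, and PCAT14, DPP7 and GAL complete the 14.

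**Figure D1:**
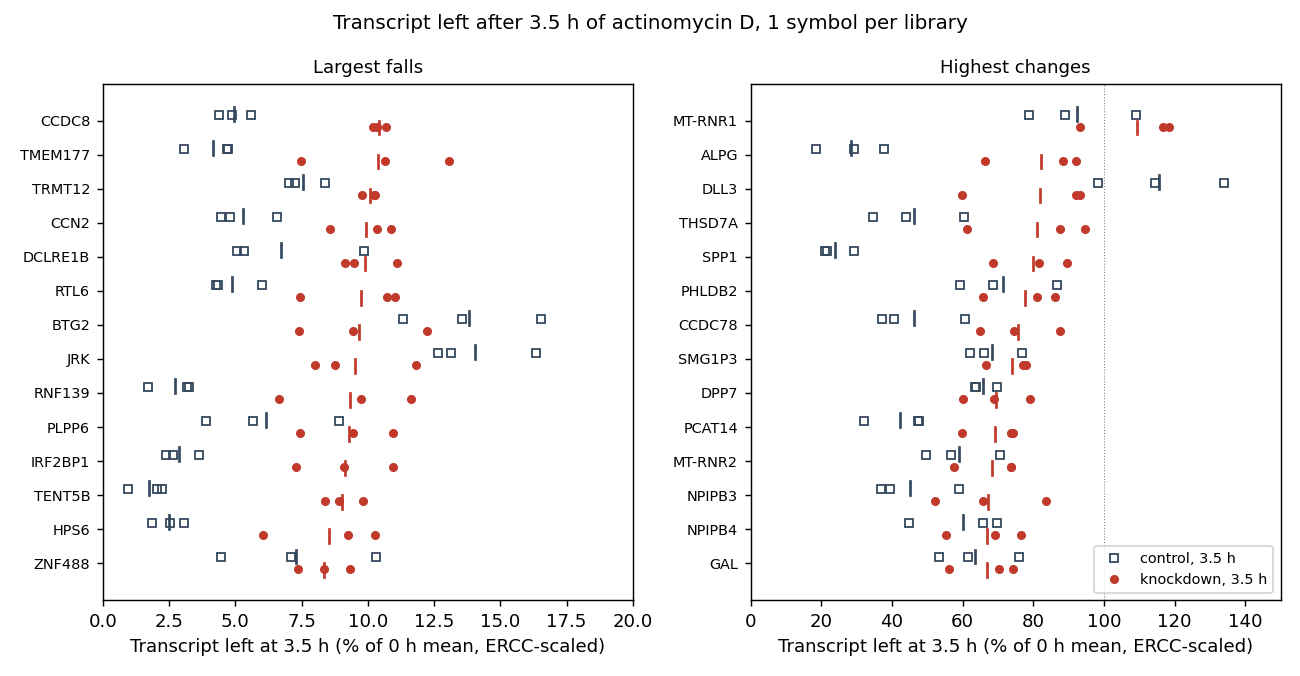
Percentage of transcript left at 3.5 h (ERCC-scaled, with the 0 h mean of that genotype as reference) for the 14 largest falls and the 14 highest genes of knockdown cells; each symbol is 1 library, red circles knockdown and dark squares control, and vertical bars are means of 3. The largest falls sit between 6.03% and 13.1% in knockdown cells, and TENT5B, HPS6 and IRF2BP1 are lower still in every control library.

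Housekeeping genes were lost more slowly than the typical transcript as whole groups. Over all genes tested 25.1% passed as higher and 22.8% as lower under TMM. Of 82 cytosolic ribosomal protein genes, 78 passed as higher and 0 as lower under TMM, with a median log2 change of 0.55 against 0.04 over all genes. Their median level left was 50.9%, from 37.8% for RPL7L1 to 66.6% for RPL22L1, both relatives of ribosomal proteins outside the canonical set. Of 73 nuclear genes of oxidative phosphorylation, 69 passed as higher and 0 as lower, and the median left was 48.8%. COX6C, a subunit of cytochrome c oxidase, kept 60.5%, 69.9% and 54.0%, the most of this list, and SDHA, of succinate dehydrogenase, 30.1%, 33.3% and 25.6%. Translation factors rose in 31 of 43 and fell in 0, led by EEF1A1, the elongation factor that brings tRNA to the ribosome, with 50.8% ± 7.34 left. The proteasome list had 20 of 31 higher and 0 lower. In these 4 lists no gene was lower at an unadjusted p under 0.05 or by DESeq2. Counts were less one-sided elsewhere, with aminoacyl-tRNA synthetases 14 of 20 higher and 1 lower, and heat shock chaperones 16 of 26 higher and 5 lower. Leaving out knockdown replicate 1 at 0 h gave 79, 69, 31, 22, 15 and 18 higher in these 6 lists, with 1 translation factor and 3 heat shock chaperones lower.

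Among metabolic and structural genes the same direction prevailed with exceptions, against 25.1% higher and 22.8% lower over all genes tested under TMM. Glycolysis had 15 of 22 higher and 3 lower, or 15 and 5 without knockdown replicate 1 at 0 h. PGAM1, phosphoglycerate mutase, kept 50.2% ± 7, and HK2, the hexokinase of rapidly growing cells, 26.4% ± 3.70 (log2 change -0.40 ± 0.06 under TMM, adjusted p = 3.6e-06). Collagens and matrix genes had 29 of 39 higher and 2 lower, from THBS1, thrombospondin, at 23.8% ± 3.09 to COL6A2, a collagen VI chain, at 59.0% ± 9.04. Actin cytoskeleton genes had 27 of 39 higher and 1 lower, or 26 and 4 without knockdown replicate 1 at 0 h. Cholesterol synthesis genes were divided, 11 of 25 higher and 6 lower, between SQLE, squalene epoxidase, at 20.5% ± 2.88 and FDPS, farnesyl diphosphate synthase, at 45.7% ± 5.21.

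The 13 protein-coding genes of mitochondrial DNA did not fall together, although most of them are read as part of a long shared precursor. Of these, 10 passed as higher and 3 as lower under TMM, against 25.1% and 22.8% of all genes tested. MT-ND1, MT-ND5 and MT-ND6, subunits of complex I, kept 25.1% ± 3.10, 25.6% ± 2.72 and 26.8% ± 3.57. MT-ND3, of the same complex, kept 61.1% ± 9.85 and MT-CO2, of cytochrome c oxidase, 59.3% ± 7.54. The remaining 8 lay between 39.5% and 55.2%. Actinomycin D also blocks transcription of mitochondrial DNA, but how far it did so here was not measured.

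Regulatory genes lay on the opposite side. Of 483 C2H2 zinc finger genes, 268 passed as lower and 15 as higher under TMM, with a median of 26.3% left. Over all genes tested the shares were 22.8% lower and 25.1% higher. In 482 of the 483 the libraries did not overlap between times, against 96% over all genes tested. Among 46 SOX, FOX, homeobox, KLF and bHLH factors 29 were lower and 2 higher, and the median left was 23.2%, the lowest of all lists. FOXO1, a forkhead factor under insulin control, kept 13.4%, 12.2% and 10.8%, and HES4, a Notch-regulated repressor, 69.8%, 61.4% and 37.9%. Feedback genes of ERK and WNT signalling had 11 of 19 lower and 1 higher, with DUSP5, a phosphatase of ERK, at 11.9% ± 2.65. Signalling receptors had 19 of 32 lower and 2 higher (18 lower and 1 higher without knockdown replicate 1 at 0 h), with the WNT receptor FZD5 at 12.9% ± 3.16 and the FGF receptor FGFR4 at 49.1% ± 8.57. p53 targets had 18 of 35 lower and 6 higher.

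Immediate early and AU-rich genes were lower in 17 of 35 and higher in 2, with a median of 26.2% left (17 lower and 1 higher without knockdown replicate 1 at 0 h). Over all genes tested 22.8% were lower and 25.1% higher under TMM. MCL1, an anti-apoptotic protein with a well-known short half-life, kept 13.2% ± 2.16, and FOSL1, an AP-1 subunit, 15.7% ± 2.66. MYC kept 36.6% ± 10.1 and JUN 37.5% ± 4.36, close to the typical transcript, and neither passed under TMM (adjusted p = 0.73 and 0.56). ID1, an inhibitor of bHLH factors, kept 43.4% ± 5.09 and passed as higher (log2 change 0.32 ± 0.10, adjusted p = 0.0094). FOS kept 65.7% ± 15.3 and passed as higher (adjusted p = 0.02). Its mean was only 0.99 CPM, with libraries from 48.6% to 78.1%, so low counts limit this value.

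The core pluripotency genes ranged from 12.1% to 49.5% left. Of 38 genes, 18 passed as lower and 10 as higher under TMM, with a median of 29.5% left. Over all genes tested the shares were 22.8% lower and 25.1% higher. All 38 had libraries that did not overlap between the times, against 96% over all genes tested. VRTN, a vertebrate DNA-binding protein, was lost most, with 12.1% ± 1.76 left. NANOG, a homeobox factor of pluripotency, stood at 23.5, 17.8 and 19.9 CPM at 0 h and 9.77, 11.02 and 10.03 CPM at 3.5 h, with 17.3% ± 2.90 left (log2 change -2.52 ± 0.22, adjusted p = 1.8e-29). PRDM14, ZFP42, SOX3, TRIM71 and OTX2, transcriptional or post-transcriptional regulators, kept 14.01% to 18.4%. SOX2, the partner of OCT4 (chromosome 3, 181711924 to 181714436), kept 33.3%, 29.5% and 23.1% (log2 change -1.80 ± 0.21, adjusted p = 1.0e-17). Its fall under TMM, -0.27 ± 0.09 (adjusted p = 0.012), did not pass without replicate 2 or 3 at 3.5 h (adjusted p = 0.056 each). POU5F1, which encodes OCT4 (chromosome 6, 31164337 to 31180731), was the slowest of the list. It rose in share from 355, 413 and 401 CPM to 566, 545 and 530 CPM and kept 54.8%, 53.2% and 40.5%; its processed pseudogenes make its counts less certain. EPCAM, an adhesion molecule of these cells, kept 47.5% ± 4.98 and LIN28A, an RNA-binding protein, 40.2% ± 5.74.

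Transcripts of the decay machinery itself varied widely, also within a complex. Of 69 genes, 23 passed as lower and 17 as higher under TMM, against 22.8% and 25.1% of all genes tested. The median left was 34.96%, near the 36.0% of all genes. The rings of LSM proteins, which bind shortened tails and activate decapping, were among the slowest, with LSM1, LSM3, LSM4, LSM5, LSM6 and LSM7 between 44.4% and 51.1%, all higher under TMM. LSM2 kept 37.8% ± 4.43 and did not pass. SMG8, of the nonsense-mediated decay kinase complex, kept 10.7% ± 1.76, the decapping cofactor DCP1B 14.7% ± 3.20 and the helicase DDX6 18.5% ± 1.68. Subunits of the exosome, the main 3′ to 5′ nuclease, ranged from EXOSC4 at 19.9% ± 4.54 to EXOSC1 at 43% ± 5.83. CNOT1, the scaffold of the deadenylase complex, kept 34.8% ± 4.54 and XRN1, the cytoplasmic exonuclease, 31.9% ± 2.55, and neither passed under TMM (adjusted p = 0.94 and 0.51).

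Genes of RNA modification were lower in 20 of 39 and higher in 3, or 22 lower and 5 higher without knockdown replicate 1 at 0 h. List counts in this paragraph are read against 22.8% lower and 25.1% higher over all genes tested under TMM. The m6A reader YTHDF2 kept 11.9%, 12.1% and 9.83% (log2 change -3.15 ± 0.22, adjusted p = 4.0e-45). The reader YTHDF1 kept 17.1% ± 2.10 and the writer METTL3 24.98% ± 4.66. TRMT112, the shared activator of several methyltransferases, kept 48.3% ± 6.2. THUMPD1, the tRNA-binding partner of NAT10, kept 21.8% ± 3.26. NAT10 itself was left at 34.9%, 31.5% and 25.9% in knockdown cells, or 30.8% ± 4.56 (log2 change -1.70 ± 0.21, adjusted p = 2.2e-15). Under TMM its change was -0.19 ± 0.07 (adjusted p = 0.03). That call was lost without knockdown replicate 3 at 0 h, or replicate 2 or 3 at 3.5 h, with adjusted p between 0.072 and 0.20. It was also lost by DESeq2 (adjusted p = 0.054) and in a fit of the 6 libraries alone (adjusted p = 0.11). Chromatin regulators had 28 of 62 lower and 15 higher, from ARID1A at 16.8% ± 2.93 to NAP1L1, a histone chaperone, at 48.6% ± 6.36. Ribosome biogenesis had 24 of 67 lower and 15 higher, from RIOX1, a ribosomal oxygenase, at 11.5% ± 1.07 to NHP2, of box H/ACA particles, at 45.0% ± 5.05.

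Several other lists had calls in both directions. They are read against 25.1% higher and 22.8% lower over all genes tested under TMM, and a count near these shares is no trait of the list. Mitosis genes had 12 of 34 higher and 12 lower, with the kinase AURKA at 16.2% ± 2.99 and the checkpoint protein MAD2L1 at 47.9% ± 5.55, and 14 and 8 without knockdown replicate 1 at 0 h. DNA replication had 9 of 44 higher and 14 lower, cell cycle regulators 7 of 34 higher and 12 lower, and mitochondrial ribosomal proteins 30 of 77 higher and 11 lower. Genes of the unfolded protein response had 8 of 29 higher and 12 lower, with XBP1, its transcription factor, at 13.5% ± 2.38. Splicing regulators had 16 of 41 higher and 5 lower, or 26 and 5 without knockdown replicate 1 at 0 h. Host genes of small nucleolar RNAs had 14 of 23 higher and 5 lower, or 13 and 2 without that library. The interferon list had 11 of 29 higher and 2 lower, the BCL2 family 5 of 17 each way, naive pluripotency genes 4 of 10 higher and 1 lower, and long noncoding RNAs of the nucleus 2 of 16 higher and 7 lower. Without knockdown replicate 1 at 0 h the last of these lists had 5 higher and 6 lower, and the naive list 4 and 2. NORAD, an abundant RNA that binds Pumilio proteins, kept 16.1% ± 2.23.

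**Figure D2:**
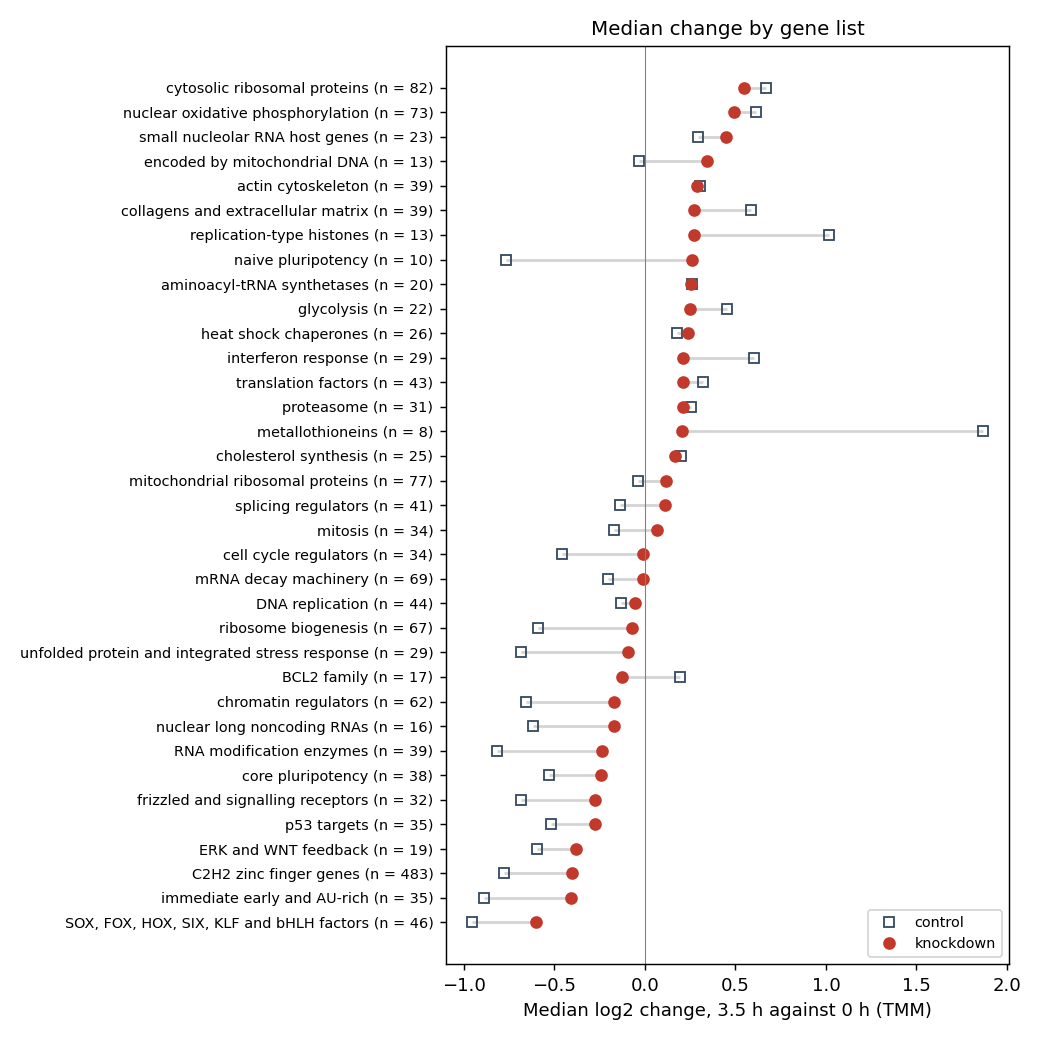
Median log2 change from 0 to 3.5 h under TMM scaling for each gene list with at least 8 genes tested; red circles are knockdown and open squares control cells, each a median over the list, with no error shown. Transcription factor families lie lowest in knockdown cells (-0.60) and cytosolic ribosomal proteins highest (0.55), and the metallothioneins show the widest gap between genotypes.

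The lost set held more genes with few exons than the whole, and the kept set did not. Among protein-coding genes, 31.8% of the lost set had 1 or 2 exons, against 4.28% of all 10414 and 3.58% of the kept set. The median gene with 1 exon kept 25.2% (145 genes) and with 2 exons 25.7% (301 genes). With 3 or 4 exons it kept 33.7%, with 5 to 8 exons 37.4%, with 9 to 15 exons 37.7%, and with 16 or more 36.9%. Without zinc finger genes the medians for 1 and 2 exons were 25.2% and 25.9%. Coding length went the other way: the shortest quintile, with a median of 582 coding bases, kept 41.5% and the longest 34.4%. The quintile with the shortest 3′ UTR kept 40.7% and that with the longest 32.7%. Genes without the TATTTAT motif in the 3′ UTR kept a median of 38.0%, with 1 copy 34.95% and with 2 or more 33.3%. Within quintiles of 3′ UTR length, from shortest to longest, the medians without it were 40.8%, 38.9%, 37.0%, 35.6% and 33.0%. With it they were 37.7%, 36.5%, 35.7%, 34.3% and 32.6%. The least abundant quintile kept 32.5% and the most abundant 40.4%. These are medians over genes that share the same libraries, given with no test.

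**Figure D3:**
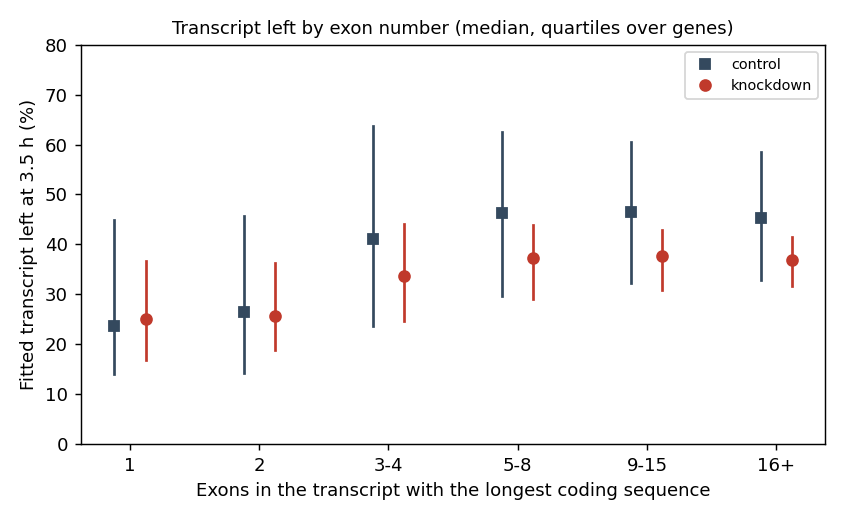
Fitted percentage of transcript left at 3.5 h by the number of exons in the transcript with the longest coding sequence, for protein-coding genes with a mean of at least 5 CPM; symbols are medians over genes and lines quartiles, red circles knockdown and dark squares control. Genes with 1 or 2 exons have the lowest medians in both genotypes, and the quartiles are wider in control cells.

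By class of gene, processed pseudogenes kept a median of 47.8% (43 genes), a value that reads shared with their parent genes can set, and protein-coding genes 36.8%. Antisense transcripts kept 31.6% (73 genes) and long intergenic RNAs 34.6% (100 genes); without a stated strand setting antisense counts cannot be told apart from those of their partner.

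Decay in knockdown cells was set against that in control cells over the same 3.5 h, by the difference of the 2 log2 changes. Control cells had a median log2 change of -1.14 under ERCC scaling, with 13590 genes lower (81.1%) and 99 higher (0.591%). The median difference, knockdown minus control, was -0.32, with 449 genes higher (2.68%), that is, less lost in knockdown cells, and 1594 lower (9.51%). Under TMM, where the median difference was 0.08, the counts were 4079 higher (24.3%) and 2095 lower (12.5%), so the prevailing direction depends on the scale. The ERCC counts also rest on single libraries. Genes lower numbered 3470 without control replicate 1 at 0 h, 851 and 849 without control replicates 2 and 3 at 0 h, 769 without control replicate 2 at 3.5 h and 821 without knockdown replicate 3 at 3.5 h. Genes higher numbered 762 without knockdown replicate 1 at 0 h and 293 without replicate 2.

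Genes differed less from one another in knockdown cells than in control cells. The central 90% of log2 changes was 1.59 wide in knockdown and 2.85 wide in control cells under ERCC scaling, and 1.59 and 2.84 under TMM. Library by library, the SD over 10285 genes of the log2 level at 3.5 h relative to 0 h was 0.416, 0.418 and 0.418 in knockdown and 0.765, 0.764 and 0.764 in control cells. The 2 groups of 3 did not overlap, and with any replicate at 0 h left out the knockdown value was 0.412 to 0.424. Across 10805 genes the 2 changes had a Pearson r of 0.815 and a slope of 0.435, knockdown on control, as a description over genes that are not independent. The lost set kept a median of 10.9% in control cells, where 319 of 321 passed as lower under TMM, and 15.5% in knockdown cells. The kept set had 72.2% left in control cells and 55.1% in knockdown cells, with 253 of 309 higher in control under TMM and 13 lower. Over all genes with a mean of at least 5 CPM, 40.4% passed as lower and 37.0% as higher in control cells under TMM.

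**Figure D4:**
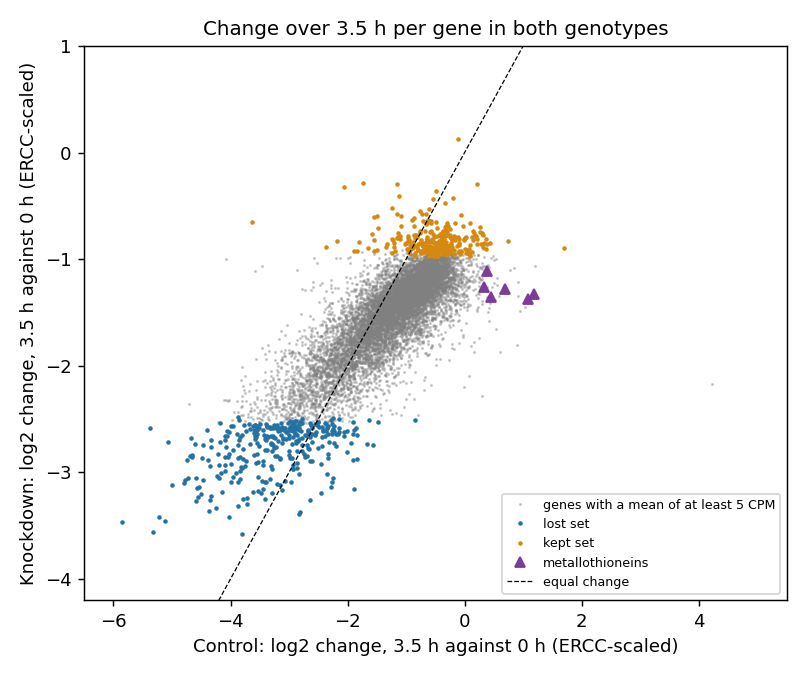
Fitted log2 change from 0 to 3.5 h (ERCC-scaled) in control cells (horizontal) against knockdown cells (vertical) for the 10805 genes with a mean of at least 5 CPM; blue and orange mark the lost and kept sets, triangles the metallothioneins of that level, and the dashed line equal change. The cloud is flatter than the dashed line, with a slope of 0.435, and the metallothioneins lie to the right, at positive changes in control cells only.

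The calls per list under ERCC scaling are read against the shares over all genes, 2.68% higher and 9.51% lower. Cytosolic ribosomal proteins kept a median of 50.9% in knockdown and 73.1% in control cells, and oxidative phosphorylation genes 48.8% and 70.4%; 3 of 82 and 5 of 73 were called lower in the difference and 0 higher under ERCC scaling, or 1 each without knockdown replicate 1 at 0 h, which does not exceed the share over all genes. Zinc finger genes kept 26.3% and 26.7%, with 27 of 483 higher and 19 lower, or 41 and 9 without that library. Core pluripotency genes kept 29.5% and 31.6%, with 8 of 38 higher and 1 lower. RNA modification enzymes kept 30.0% and 26.1%, with 4 of 39 higher and 3 lower, or 5 and 1 without it. Under TMM the shares over all genes were 24.3% higher and 12.5% lower. On that scale zinc finger genes had 197 of 483 higher and 19 lower, and core pluripotency genes 22 of 38 and 2. RNA modification enzymes had 25 of 39 higher and 2 lower. Cytosolic ribosomal proteins had 1 of 82 higher and 18 lower, and oxidative phosphorylation genes 2 of 73 and 13.

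Several regulators were lost less in knockdown cells on both scales. SOX2 kept 28.6% ± 5.16 in knockdown and 9.77% ± 2.43 in control cells, with control libraries at 8.18%, 12.6% and 8.55%. The 2 sets did not overlap, and the difference was 1.56 ± 0.29 on the log2 scale (adjusted p = 1.2e-05), between 1.40 and 1.81 over 18 alternatives under ERCC scaling. PRDM14 differed by 1.82 (adjusted p = 4.5e-07) and MYCN by 1.68 (adjusted p = 9.4e-06). YTHDF2 kept 11.3% ± 1.27 and 4.20% ± 0.22, a difference of 1.43 ± 0.29 (adjusted p = 8.9e-05). TENT5B kept 9.04% ± 0.728 and 1.75% ± 0.69, a difference of 2.39 ± 0.31 (adjusted p = 4.8e-11). POU5F1 went the other way in value, 49.5% ± 7.83 and 79.0% ± 13.1, but its difference of -0.67 ± 0.27 did not pass under ERCC scaling (adjusted p = 0.079), and under TMM it did (-0.29, adjusted p = 0.0034). NANOG kept 17.3% and 20.7%, a difference of -0.25 ± 0.30 that did not pass (adjusted p = 0.59), nor did its value of 0.14 under TMM. ANP32B, a histone chaperone, kept 45.9% ± 6.11 and 69.4% ± 11.5. Its difference of -0.60 ± 0.28 did not pass under ERCC scaling (edgeR, adjusted p = 0.13), and under TMM it did (-0.20 ± 0.08, adjusted p = 0.044).

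The widest differences towards higher values in knockdown cells reached 3.08 on the log2 scale. ANXA1, a calcium-dependent phospholipid-binding protein (chromosome 9, 73151757 to 73170393), stood at 356, 302 and 295 CPM in knockdown cells at 0 h and 577, 594 and 595 CPM at 3.5 h. In control cells it stood at 50.6 ± 13.2 CPM at 0 h, with 6.01%, 8.36% and 9.89% left against 66.9%, 69.5% and 54.5% in knockdown cells (difference 2.98 ± 0.29, adjusted p = 2.0e-20). Its own fall in knockdown cells under ERCC scaling did not pass without knockdown replicate 1 at 0 h (adjusted p = 0.05016). VGF, a secreted neuropeptide precursor, kept 47.7% ± 7.62 in knockdown and 9.05% ± 1.59 in control cells (difference 2.40 ± 0.29, adjusted p = 1.4e-13). ADM, the peptide hormone adrenomedullin, differed by 2.47 ± 0.38, CHAC1, a glutathione-degrading enzyme of the stress response, by 2.78 ± 0.52, and the pseudogene ECEL1P1 by 3.08 ± 0.52. The minimum of 5 CPM was set on the 6 knockdown libraries only. In control cells ADM stood at 4.76 ± 0.84 CPM at 0 h and 0.87 ± 0.29 CPM at 3.5 h, where low counts limit the fold. SPP1 kept 80% ± 10.6 and 24.0% ± 4.62, a difference of 1.74 ± 0.28 (adjusted p = 3.0e-07).

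Metallothioneins, small cysteine-rich proteins that bind zinc and copper, showed the opposite pattern as a family. In knockdown cells the 8 tested stood under ERCC scaling at between 38.5% and 46.3% of the 0 h level at 3.5 h, and in control cells their median stood at 170%. Under TMM 0 of the 8 passed either way in knockdown cells, with 0 at an unadjusted p under 0.05 and 0 by DESeq2. In control cells 8 passed as higher under TMM, against 31.6% of all genes tested. MT1F did pass as higher in knockdown cells with no filter (adjusted p = 0.00021) and in a fit of the 6 libraries alone (adjusted p = 0.011). MT1G (chromosome 16, 56666731 to 56668065) was at 43.7%, 41.9% and 34.2% in knockdown and at 188%, 269% and 221% in control cells at 3.5 h, a difference of -2.50 ± 0.28 (adjusted p = 1.2e-14). MT1X was at 38.5% ± 3.08 and 213% ± 39.9 (difference -2.47 ± 0.30, adjusted p = 9.4e-13) and MT2A at 41.8% ± 6.58 and 126% ± 21.2. All 8 members were lower in the difference under ERCC scaling, also without knockdown replicate 1 at 0 h, and 7 under TMM, MT1M being the exception (adjusted p = 0.078). At 0 h the control libraries varied widely, with MT1G at 91.7%, 29.5% and 179% of their mean, while the knockdown libraries lay at 116%, 100% and 84.0%. At 1.5 h MT1G stood at 62.2% ± 5.73 in knockdown and 51.7%, 47.1% and 52.8% in control cells. The family's members are near-identical, so reads may be split among them, and they lie together on chromosome 16.

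Histones moved like the metallothioneins in part. Of 13 replication-type and linker histone genes tested, with 2 at 5 CPM or more, 0 passed in either direction in knockdown cells under TMM (edgeR). At an unadjusted p under 0.05, 2 were higher and 0 lower, and DESeq2 called 0 each way. Without knockdown replicate 1 at 0 h, 2 passed as higher. Their median left was 42.2% in knockdown and 94.1% in control cells, and 5 were lower in the difference with 0 higher. H1-2, a linker histone, kept 42.8% ± 1.99 and 109% ± 29.4 (difference -1.36 ± 0.35, adjusted p = 0.003). Most histone messages lack a poly(A) tail, so these libraries hold a minor form of them. TRANK1 kept 20.5% ± 2 in knockdown and 123% ± 22.1 in control cells, the synaptotagmin SYT12 28.4% ± 4.98 and 188% ± 41.3, and MEDAG 53.4% ± 7.62 and 326% ± 56.1. Their differences lay between -2.71 and -2.58. STMN4, a stathmin, had 396 counts in knockdown cells at 0 h and 221 at 3.5 h, against 0 and 6 in control cells, so no fold is given.

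**Figure D5:**
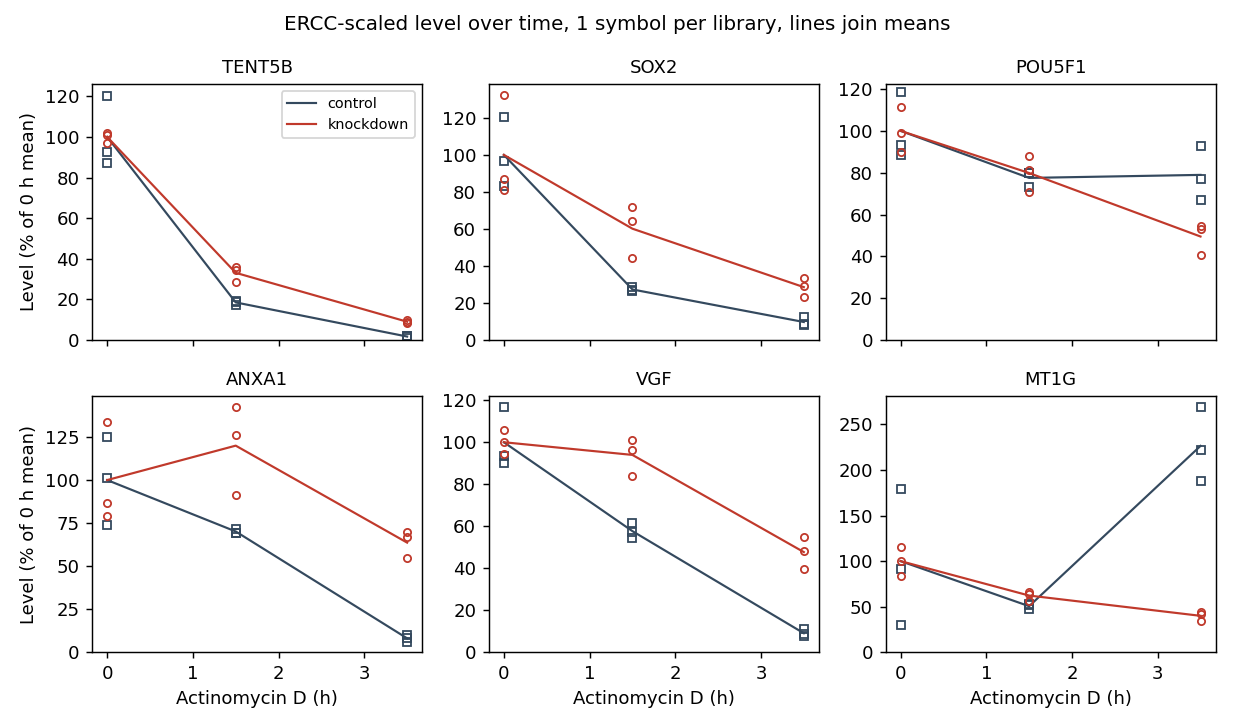
ERCC-scaled level of 6 genes at 0, 1.5 and 3.5 h as a percentage of the genotype's mean at 0 h; each symbol is 1 library, lines join the means of 3, red knockdown and dark control. TENT5B and SOX2 fall further in control cells, POU5F1 further in knockdown cells, ANXA1 and VGF stay near the 0 h level until 1.5 h in knockdown cells, and MT1G exceeds its 0 h mean at 3.5 h in control cells.

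By its median, the loss per hour was faster in the late than in the early interval, a difference tested only gene by gene. The late interval is also the longer one, so the counts of calls in each are not directly comparable. The median gene stood at 73.5%, 59.7% and 80.4% in the 3 knockdown libraries at 1.5 h. From 0 to 1.5 h the median log2 change in knockdown cells was -0.50, with 7941 genes lower (47.4%) and 6 higher (0.0358%). From 1.5 to 3.5 h it was -0.98, with 15330 lower (91.5%) and 0 higher, 0 also at an unadjusted p under 0.05. Per hour, the late rate was lower by a median of 0.16 on the log2 scale, that is, faster loss, and few single genes passed: 7 lower (0.0418%) and 1 higher (0.00597%), with 615 and 64 at an unadjusted p under 0.05. Under TMM the counts were 121 lower (0.722%) and 17 higher (0.101%). CHAC1 was the higher one. It was at 14.2%, 17.5% and 20.5% at 1.5 h and at 20.2%, 17.7% and 12.1% at 3.5 h, so the 2 times overlapped (rate difference 1.65 ± 0.28 per hour, adjusted p = 1.7e-05). IGFBP5, which binds insulin-like growth factors, stood at 144%, 112% and 148% at 1.5 h and at 63.1%, 63.7% and 42.3% at 3.5 h (-0.92 ± 0.21, adjusted p = 0.037). NRCAM, a neuronal adhesion molecule, stood at 131%, 95.5% and 154% at 1.5 h and AHNAK, a giant scaffold protein, at 95.03%, 66.9% and 103% (each adjusted p = 0.037). The call of IGFBP5 was lost without knockdown replicate 2 or 3 at 0 h, 1 or 3 at 1.5 h or 3 at 3.5 h, and those of NRCAM and AHNAK also without replicate 1 at 3.5 h. The calls of NRCAM and AHNAK were lost with the replicate number as a block too (adjusted p = 0.051). With no filter on low counts all 3 calls were lost, IGFBP5 at an adjusted p = 0.072, NRCAM at 0.091 and AHNAK at 0.082. NPIPB5, of a family of near-identical genes, rested on knockdown replicate 3 at 1.5 h, which stood at 306% against 105% and 132%, and without it the call was lost.

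The authors' deposited table gives 1 half-life per gene and genotype. In it the median over 12218 genes tested was 2.55 h in knockdown and 3.05 h in control cells, with the central 90% from 1.55 to 3.85 h and from 1.34 to 12.3 h. In the authors' deposited table the lost set had medians of 1.37 and 1.23 h, and the kept set of 4.24 and 7.35 h. All these medians cover only genes with a half-life in both genotypes, 261 of the lost and 258 of the kept set. Genes without a value in control cells, such as the metallothioneins, are left out. SOX2 is listed there at 1.96 h in knockdown and 0.867 h in control cells and POU5F1 at 3.56 and 11.6 h. For ANXA1 the authors' deposited table has 6.32 and 1.63 h, for SPP1 11.7 and 2.08 h and for NAT10 1.98 and 3.84 h. These values come from the same libraries and are no independent measurement.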

How the data were processed

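Polyadenylated RNA of 18 libraries was measured, 3 in each of 6 groups. Per the submitters' processing notes the reads were handled with fastp 0.21.1, HISAT2 2.2.1, SAMtools 1.12 and featureCounts 2.0.3 on hg38. For the annotation release and strand setting, the sources used here give nothing. Raw counts of reads on each gene and on 92 ERCC transcripts were deposited by the authors, the latter added, per the labels, after RNA purification. They also deposited a table of half-lives in hours, whose 18 columns of per-library values were not used.

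From the counts, edgeR 4.0.16 (R 4.3.3) fitted its quasi-likelihood test over all 18 libraries to the 16760 of 61860 genes that passed its default filter, adjusted by Benjamini-Hochberg and called under 0.05. Libraries were scaled to summed ERCC counts (common coefficient of variation 16.3%) or, apart, by TMM (6.29%). Percentages left are ERCC-scaled levels relative to the 0 h mean, and percentages for sets are fitted. A chi-square over genes compared replicates. DESeq2 1.42.0, other filters and left-out libraries were alternatives. The statistics were tested on simulated data. Those data had exact spike-in scaling and less spread than the ERCC-scaled fit, so they do not check the ERCC calls at their real spread. Of the genes tested, 16527 matched GENCODE 29 (GRCh38), which gave symbols, positions and 3′ UTRs. Figures were drawn with matplotlib 3.10.9.

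The members, gene lists and alternatives were chosen with earlier results of these data known. Genes were named by a rule: 5 genes whatever their values, the 14 largest falls and 14 highest changes, the 6 widest differences from control and in rate each way, and the lowest and highest member of each list, with a mean of at least 5 CPM except for the 5. The other genes named in the pluripotency, immediate early, decay, RNA modification, mitochondrial DNA, metallothionein and histone lists were chosen after their values were seen. A few named genes are not reported here.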

Additional observations from a re-analysis of the deposited data

Results flagged for a closer look

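These genes were picked out because the change from 0 to 3.5 h differed between knockdown and control cells by the test of the difference itself (edgeR quasi-likelihood test, ERCC scaling, adjusted p under 0.05). They are a selection, since over all genes tested 449 passed as higher and 1594 as lower. Other genes named above also passed, such as PRDM14, MYCN, YTHDF2 and H1-2, and are not repeated here. The balance of directions in this list is therefore not that of all genes. Values are log2 differences, knockdown minus control, and no explanation was tested.

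Less was lost in knockdown cells for ECEL1P1 (3.08), ANXA1 (2.98), CHAC1 (2.78), ADM (2.47), VGF (2.40) and TENT5B (2.39). The same direction held for RNF139 (1.80), HPS6 (1.76), SPP1 (1.74), IRF2BP1 (1.66), SOX2 (1.56), TMEM177 (1.33), CCDC8 (1.08), RTL6 (1.001) and CCN2 (0.92). These genes had a minimum of 5 CPM in the 6 knockdown libraries and none in control cells, so a fold may rest on low control counts. ADM stood at 4.76 ± 0.84 CPM at 0 h and 0.87 ± 0.29 CPM at 3.5 h in control cells.

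More was lost in knockdown cells for SYT12 (-2.71), MEDAG (-2.60) and TRANK1 (-2.58), and less strongly for NAT10 (-0.79). All 8 metallothioneins tested were in this group, namely MT1L (-2.66), MT1G (-2.50), MT1X (-2.47), MT1M (-2.13), MT1H (-1.96), MT1E (-1.79), MT2A (-1.59) and MT1F (-1.48). Their control libraries at 0 h were widely spread, and the part of that spread in the differences was not tested.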

How the results depend on the processing

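The prevailing direction of the difference from control depended on the scale, with a median of -0.32 under ERCC scaling and 0.08 under TMM. In knockdown cells under ERCC scaling 2 genes were higher with no filter, and 0 to 1 with single libraries left out. Under TMM a fit of the 6 libraries alone called 2549 higher. The difference from control had 4079 higher under TMM. Single libraries left out gave 293 to 762 higher and 769 to 3470 lower. For the late against the early rate TMM called 17 higher and 121 lower, no filter 4 lower, and left-out libraries 1 to 2 higher and 1 to 25 lower. The short-lived set held 0 genes at bounds of -4 and -0.25, 23 with no minimum mean and 0 to 6 with libraries left out. The persistent set held 1, 112 and 9 to 45. With no minimum mean the lost set held 749 genes and the kept set 668, and with libraries left out the kept set held 300 to 543. The cause of these shifts was not tested, save that fewer or more genes are eligible by construction where the bounds or the minimum change.

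Replicate numbers did not pair the knockdown libraries: deviations of same-numbered libraries at 0 and 3.5 h had correlations of -0.45, -0.20 and -0.25 over 9066 genes. With the number as a block the rate comparison had 4 genes lower, and the other counts moved little, with 439 higher and 1556 lower in the difference. The spread of ERCC totals limits the ERCC-scaled differences, and low counts limit genes below 5 CPM.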
